A study of Homo sapiens with 12 samples.

Results

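The genes described here are the expressed members of the ZNF series of zinc finger genes in SKMEL2 cells, an established human melanoma line. A gene was taken when its symbol was ZNF followed by digits alone and its linear intensity averaged at least 50 over the 3 DMSO arrays. Where a gene had several probe sets, the one with the highest mean over all 12 arrays stood for it. This gave 209 genes, which are 48.7% of the 429 measured ZNF genes and part of 14582 named genes on the array. The intensities of the DMSO arrays chose the members, so for the members each comparison with DMSO is given below as a description with no p-value. Members were tested in the 2 comparisons that leave those arrays out, DTE against DT and DTE against E. A list of cofactor genes, which the DMSO arrays did not choose, was tested against DMSO as well.

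RNA was profiled on 12 Affymetrix arrays, 3 per group, 24 hours after treatment. The DTE cells received 100 nM dabrafenib, 10 nM trametinib and 1 µM entinostat together, the DT cells received 100 nM dabrafenib with 10 nM trametinib, the E cells received 1 µM entinostat, and the DMSO cells received vehicle. Dabrafenib inhibits RAF kinases, trametinib inhibits the kinases MEK1 and MEK2 below them, and entinostat inhibits class I histone deacetylases. All groups are 1 cell line. Replicates are termed biological in the titles but technical in the text on the whole study, and nothing says that they came from separate cultures, so a p-value here speaks of array-to-array spread that may be technical.

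ZNF genes encode proteins that bind DNA, and in some cases RNA, through repeated C2H2 zinc fingers. Many carry a KRAB domain, which recruits TRIM28 and through it histone methyltransferases, HP1 proteins, histone deacetylases and DNA methyltransferases, and much of their known binding is at transposable elements. The KRAB genes of primates lie in clusters of tandem copies, most of them on chromosome 19. Other ZNF genes have no KRAB domain and act as activators, as subunits of chromatin complexes, or in RNA processing, ribosome assembly and mitosis.

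Of the 209 genes, 95 (45.5%) lie on chromosome 19, 17 on chromosome 7 and 14 on chromosome 16. Within the RefSeq promoter table of the assembly GRCh38.p14, 180 of the 209 had an entry, a window of 250 bases before to 50 bases after the start. Windows were searched on both strands for 9 motifs as fixed letters: ETS (CCGGAAGT), CRE (TGACGTCA), AP-1 (TGANTCA), E2F (TTTNGCGC), E-box (CACGTG), the ZNF143, YY1 and NRF1 motifs, and a joined ETS-CRE, which is the ETS core GGAAG directly before the CRE. The ETS letters stood in 37 of the 180 windows (20.6%), against 15.1% of the windows of ZNF genes under 50 in DMSO, 10.4% of those of other genes at 50 or more, and 4.44% of all 27305 windows. The CRE letters stood in 13 windows (7.22%), against 1.08% of windows of ZNF genes under 50, 3.49% of those of other genes at 50 or more, and 1.98% of all windows. Of these 13, 5 belong to 1 run of neighbours on chromosome 19, described next. Windows of that run share stretches of 9 to 29 bases, so the windows are not independent counts. A match is a run of letters and no measure of binding.

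A run of 5 neighbours on chromosome 19, ZNF266, ZNF426, ZNF121, ZNF561 and ZNF562, held the CRE letters in every window, 17, 21, 50, 23 and 7 bases before the start in that order. In all of them except ZNF426 the CRE directly followed the ETS core, and this joined form stood in 4 of 180 expressed ZNF windows and in 24 of 27305 windows overall (0.0879%). The joined motif contains the CRE, and no other 2 of the motifs searched overlapped in a member's window. The longest stretch that 2 of these 5 windows shared was 9 to 29 bases. The 5 windows are shown because they hold the same element, with the CRE in capitals, all on the minus strand of chromosome 19 in GRCh38.p14 from RefSeq.
ZNF266 (chr19:9435524-9435823, minus strand): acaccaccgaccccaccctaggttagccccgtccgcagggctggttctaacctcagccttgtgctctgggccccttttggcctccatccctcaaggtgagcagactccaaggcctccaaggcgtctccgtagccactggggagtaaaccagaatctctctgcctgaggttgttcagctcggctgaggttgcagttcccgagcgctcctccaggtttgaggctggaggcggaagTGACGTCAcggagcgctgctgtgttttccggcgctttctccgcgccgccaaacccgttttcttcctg
ZNF426 (chr19:9538596-9538895, minus strand): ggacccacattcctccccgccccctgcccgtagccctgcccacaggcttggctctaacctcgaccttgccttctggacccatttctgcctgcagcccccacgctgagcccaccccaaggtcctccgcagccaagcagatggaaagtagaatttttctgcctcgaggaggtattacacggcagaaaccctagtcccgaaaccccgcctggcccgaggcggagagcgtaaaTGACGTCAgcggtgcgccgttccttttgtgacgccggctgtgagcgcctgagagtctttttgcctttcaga
ZNF121 (chr19:9584455-9584754, minus strand): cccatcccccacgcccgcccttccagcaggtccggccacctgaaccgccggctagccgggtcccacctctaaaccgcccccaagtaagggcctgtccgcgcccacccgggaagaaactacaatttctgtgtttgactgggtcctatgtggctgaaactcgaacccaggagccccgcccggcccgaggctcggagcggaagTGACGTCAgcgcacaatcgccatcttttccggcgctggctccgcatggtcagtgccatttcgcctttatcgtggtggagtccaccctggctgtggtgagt
ZNF561 (chr19:9621183-9621482, minus strand): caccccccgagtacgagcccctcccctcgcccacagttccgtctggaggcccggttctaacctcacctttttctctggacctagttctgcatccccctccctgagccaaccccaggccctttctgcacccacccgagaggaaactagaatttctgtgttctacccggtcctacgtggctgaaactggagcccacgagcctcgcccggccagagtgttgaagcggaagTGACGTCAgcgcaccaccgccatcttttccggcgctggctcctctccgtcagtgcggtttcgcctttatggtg
ZNF562 (chr19:9675051-9675350, minus strand): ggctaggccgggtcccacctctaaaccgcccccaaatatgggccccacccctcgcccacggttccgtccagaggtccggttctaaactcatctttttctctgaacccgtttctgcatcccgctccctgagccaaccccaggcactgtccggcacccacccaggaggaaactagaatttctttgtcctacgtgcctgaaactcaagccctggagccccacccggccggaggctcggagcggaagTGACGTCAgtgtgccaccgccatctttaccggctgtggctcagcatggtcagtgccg

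Windows of 3 other genes named below are also shown, again from RefSeq GRCh38.p14. No result rests on them, and a link between the letters and the response was not tested. The E2F letters stood in 4.44% of the expressed ZNF windows. They stood in 5.91% of windows of ZNF genes under 50 in DMSO and in 3.41% of those of other genes at 50 or more. In ZNF367 the capitals mark the E2F letters as they read on the opposite strand, 35 bases before the start. In ZNF215 and ZNF184 they mark the ETS letters, 117 and 25 bases before the start. ZNF215 has 2 listed promoters, and the first is shown.
ZNF367 (chr9:96418321-96418620, minus strand): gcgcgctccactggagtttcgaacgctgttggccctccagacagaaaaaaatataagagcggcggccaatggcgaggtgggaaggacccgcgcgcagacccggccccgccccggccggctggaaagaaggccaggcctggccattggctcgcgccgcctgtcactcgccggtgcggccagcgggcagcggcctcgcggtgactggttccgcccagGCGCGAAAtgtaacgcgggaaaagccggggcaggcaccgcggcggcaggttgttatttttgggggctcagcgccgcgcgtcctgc
ZNF215 (chr11:6926176-6926475, plus strand): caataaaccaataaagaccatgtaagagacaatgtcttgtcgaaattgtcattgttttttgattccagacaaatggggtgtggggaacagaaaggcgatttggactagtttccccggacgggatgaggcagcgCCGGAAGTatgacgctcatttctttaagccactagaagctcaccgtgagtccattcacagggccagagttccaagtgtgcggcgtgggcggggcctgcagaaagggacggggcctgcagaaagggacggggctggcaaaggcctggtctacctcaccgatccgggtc
ZNF184 (chr6:27473056-27473355, minus strand): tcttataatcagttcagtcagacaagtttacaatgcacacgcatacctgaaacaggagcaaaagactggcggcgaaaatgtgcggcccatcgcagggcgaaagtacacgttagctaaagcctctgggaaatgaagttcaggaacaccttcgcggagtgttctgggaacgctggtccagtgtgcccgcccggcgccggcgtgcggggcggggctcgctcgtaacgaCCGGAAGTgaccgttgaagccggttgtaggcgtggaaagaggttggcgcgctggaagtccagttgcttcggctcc

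**Figure D1:**
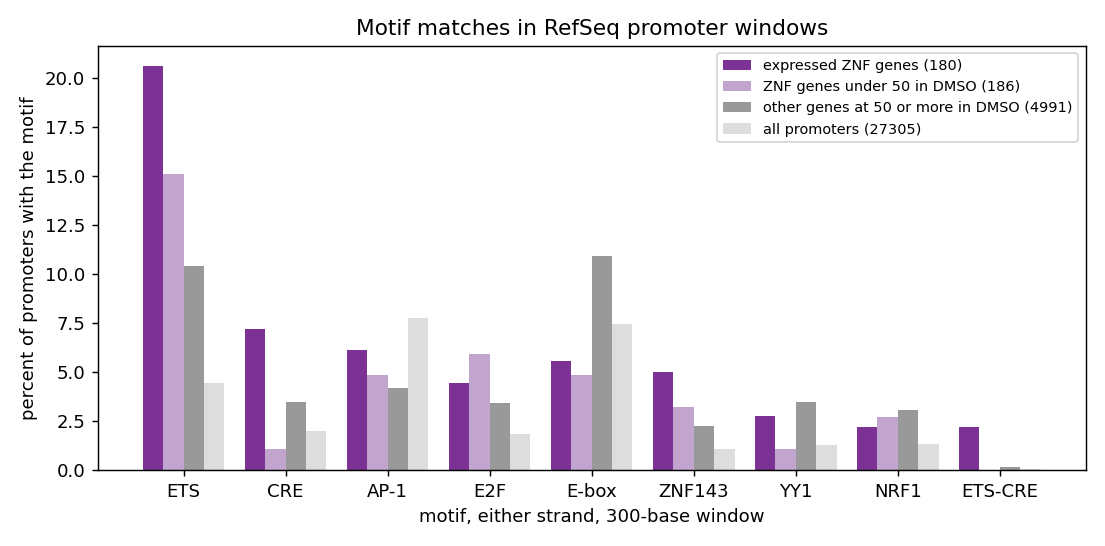
Bars give the percent of 300-base RefSeq promoter windows that hold each motif on either strand, for expressed ZNF genes (180 windows), ZNF genes under 50 in DMSO (186), other genes at 50 or more in DMSO (4991) and all windows (27305). The ETS bar of the expressed ZNF genes stands at 20.6% and their CRE bar at 7.22%, while their E-box bar (5.56%) is lower than that of other genes at 50 or more (10.9%).

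The deposited arrays differed in level, and the expressed ZNF genes moved with it. Their geometric mean intensity was 46.9, 52.1 and 53.5 on the DTE arrays, 88.6, 75.5 and 88.4 on the DT arrays, 90.8, 107 and 122 on the E arrays, and 110, 107 and 84.9 on the DMSO arrays. All DTE arrays lay under every other array, while the E and DMSO arrays overlapped. The 6175 other genes with at least 50 in DMSO averaged 73.2 ± 4.25 on the DTE arrays, 119 ± 8.52 on the DT arrays, 164 ± 21.3 on the E arrays and 155 ± 18.2 on the DMSO arrays (SD, n = 3), so their level was also lowest in DTE. The ZNF mean was 68.5% to 69.8% of that of the other genes on the DTE arrays, 69.1% to 71.4% on the DT arrays, 64.2% to 66.2% on the E arrays and 63.4% to 66.4% on the DMSO arrays. What set the level of each array is not stated in the labels. In these bulk RNA arrays fewer cells, less RNA per cell and a rescaling of the arrays cannot be told apart. Most differences are therefore given in deposited values and again after quantile normalization, which puts all arrays on 1 distribution. A difference given only once is in deposited values unless stated, and may depend on the scale.

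**Figure D2:**
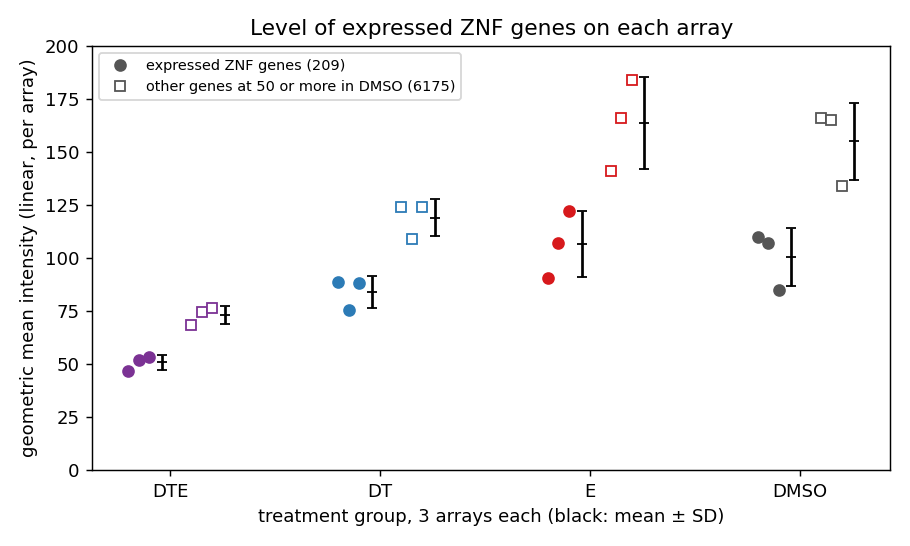
Each point is 1 array, with the linear geometric mean intensity of the 209 expressed ZNF genes (filled circles) or of the 6175 other genes with at least 50 in DMSO (open squares), and black bars give the mean ± SD of 3 arrays. The ZNF genes sit at 46.9 to 53.5 on the DTE arrays, below the DT (75.5 to 88.6), E (90.8 to 122) and DMSO arrays (84.9 to 110).

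By group mean, single members spanned 19.6 (ZNF681) to 372 (ZNF106) in DTE, 27.8 (ZNF530) to 800 (ZNF106) in DT, 38.7 (ZNF253) to 734 (ZNF106) in E, and 50.7 (ZNF668) to 848 (ZNF106) in DMSO. The number at 50 or more was 98 in DTE, 174 in DT, 201 in E and, by the rule, 209 in DMSO. None lay at or below the estimated background of 10.3 to 15.3 on any array. The brightest were ZNF106, which binds RNA, ZNF121, and ZNF207, a spindle and kinetochore protein that stabilises the checkpoint protein BUB3. Just inside the threshold ZNF668, ZNF90 and ZNF17 averaged 50.7, 50.8 and 50.9 in DMSO, and just outside ZNF770, ZNF839 and ZNF611 averaged 49.8, 49.7 and 49.5. Levels of different genes depend on their probes and are not compared further.

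The cells carried melanocyte markers. Of 8 listed, 7 were measured, and the pigment protein gene MLANA averaged 62.6 in DTE, 138 in DT, 186 in E and 267 in DMSO. The lineage factor SOX10 averaged 271 in DTE, 585 in DT, 460 in E and 584 in DMSO, and TYRP1 stayed between 18.9 and 37.2 on every array. Of 12 markers of other cell types 5 were measured: KRT5 and DCN never exceeded 6.6, EPCAM lay between 21.4 and 55.9, KRT14 between 19.1 and 43.1, and CD68 between 92.7 and 222. CD68 and most melanocyte markers were lowest in DTE, like the ZNF genes, and their part in the results was not tested.

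Most expressed ZNF genes were lower with entinostat added to dabrafenib and trametinib than without it, in deposited values. In DTE against DT 181 of the 209 fell and 0 rose by limma at an adjusted p under 0.05 (0 rose at an unadjusted p under 0.05), with a median log2 difference of -0.70. Over all 14582 genes 54% fell and 4.09% rose, and over all genes with at least 50 in DMSO 83.6% fell and 1.83% rose. The share of ZNF genes was thus near that of all genes above the same threshold. The 6175 other genes in that set were brighter in DMSO, with a geometric mean of 155 against 101 for the members. At an unadjusted p under 0.05 by limma 132 of those 6175 genes rose. After quantile normalization 50 fell and 31 rose, with a median of -0.06, against 17.9% lower and 16.4% higher over all genes and 27.1% lower and 19.9% higher over genes with at least 50. All of those 50 were among the 181. Of the 31, 7 had fallen in deposited values and 24 had not passed the test there.

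Nearly all of them were lower with dabrafenib and trametinib added to entinostat than with entinostat alone, in deposited values. In DTE against E 207 of 209 fell and 0 rose by limma (0 rose at an unadjusted p under 0.05), with a median of -1.02. Over all genes 78.5% fell and 0.247% rose, and over genes with at least 50 in DMSO 99% fell and 0.0627% rose. At an unadjusted p under 0.05 by limma 4 of the 6175 other genes with at least 50 rose. After quantile normalization 21 fell and 40 rose, with a median of 0.10, against 9.99% lower and 10.1% higher over all genes and 17.8% lower and 14.4% higher over genes with at least 50. All 21 had fallen in deposited values, and so had 38 of the 40 that rose after normalization. The 40 dropped to 25 when the array E replicate 1 was left out.

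**Figure D3:**
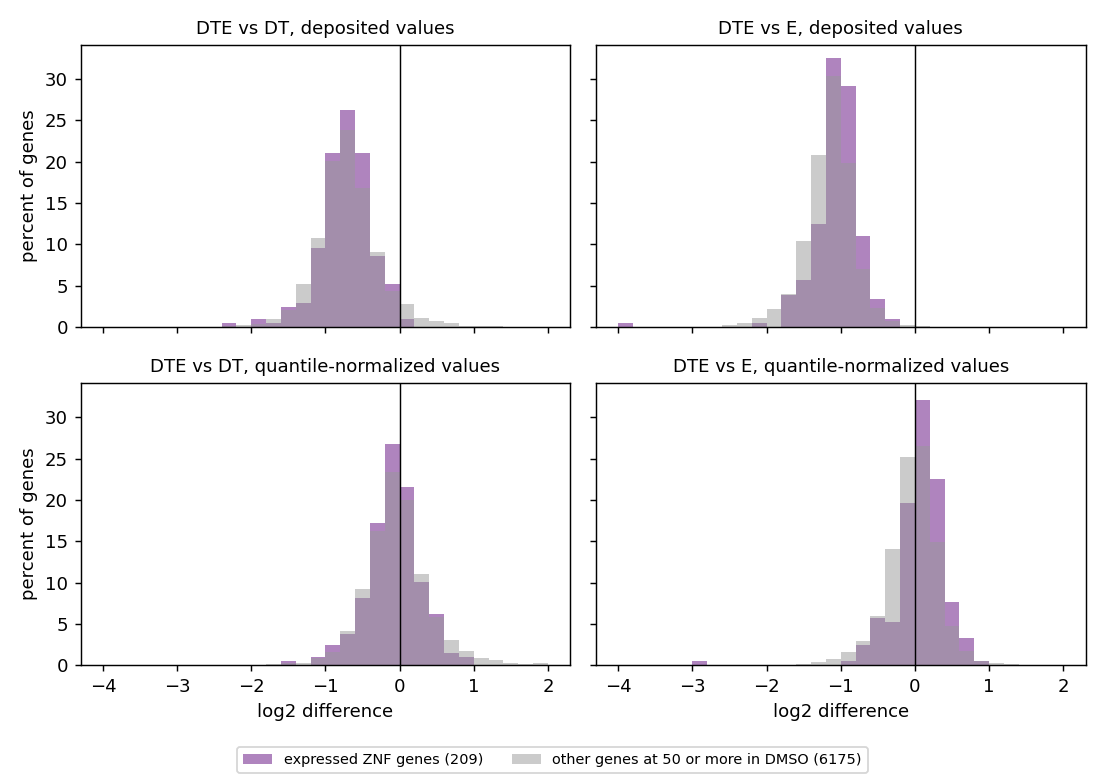
Histograms of log2 differences for the 209 expressed ZNF genes (purple) and the 6175 other genes with at least 50 in DMSO (grey), as percent of each list, in deposited values (top) and after quantile normalization (bottom); values beyond the axis are drawn at its ends. In deposited values both lists lie left of 0, with ZNF medians of -0.70 in DTE vs DT and -1.02 in DTE vs E, and after normalization both lie around 0.

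The largest fall in DTE against DT was that of ZNF362. It read 68.4, 69.6 and 69 on the DTE arrays and 337, 285 and 333 on the DT arrays. Every DTE array lay under every DT array, and the log2 difference was -2.20 ± 0.18 (SE, adjusted p = 1.6e-09) in deposited values and -1.47 (adjusted p = 3.8e-07) after quantile normalization. It also read 81.2, 106 and 139 on the E arrays and 254, 260 and 173 on the DMSO arrays, so both groups with entinostat lay under both groups without it.

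ZNF827, which brings the NuRD deacetylase complex to telomeres, showed the same order of groups. It read 120, 132 and 130 on the DTE arrays, 471, 406 and 504 on the DT arrays, 160, 222 and 211 on the E arrays, and 434, 441 and 360 on the DMSO arrays. In DTE against DT it fell by 1.85 ± 0.15 on the log2 scale (SE, adjusted p = 1.6e-09) and by 1.15 after quantile normalization. ZNF462, a chromatin protein that binds HP1, averaged 85.9 ± 5.9 in DTE, 319 ± 35.6 in DT, 152 ± 25.9 in E and 263 ± 32.8 in DMSO (SD, n = 3), and its log2 difference in DTE against DT was -1.89 (-1.14 normalized). ZNF532 averaged 33.2 ± 4.13 in DTE, 97.5 ± 12 in DT, 73.9 ± 7.64 in E and 127 ± 16.1 in DMSO, with -1.56 (-0.96 normalized). ZNF704 averaged 141 ± 11.8 in DTE, 454 ± 58.2 in DT, 335 ± 59.7 in E and 643 ± 96 in DMSO, with -1.69 (-0.99 normalized). In all of these the DTE arrays lay below all DT arrays on both scales.

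Against E, some of the same genes changed direction between deposited and normalized values and others did not. In DTE against E, ZNF362 differed by -0.62 in deposited values and 0.57 after normalization, ZNF827 by -0.62 and 0.55, and ZNF462 by -0.81 and 0.40, and each passed the test on both scales (normalized adjusted p = 0.0022, 0.00044 and 0.0028). ZNF704 and ZNF532 fell in deposited values by 1.24 and 1.16 and had normalized differences of -0.10 and -0.08 that did not pass. The direction for ZNF362, ZNF827 and ZNF462 thus depended on the scale in DTE against E and not in DTE against DT.

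Of the 8 largest falls in DTE against DT, 3 were neighbours on chromosome 16. ZNF688 read 27, 28.5 and 30.2 on the DTE arrays and 85.6, 69.3 and 82.3 on the DT arrays, a log2 difference of -1.47 ± 0.16 (SE, -0.92 normalized). ZNF785 read 23.8, 26.1 and 25.4 on the DTE arrays and 74.9, 64.3 and 66.6 on the DT arrays (-1.45, or -0.97 normalized). ZNF764 read 29.2, 25.3 and 42.7 on the DTE arrays and 83.1, 88 and 83.3 on the DT arrays (-1.43, or -0.86 normalized). The DTE and DT arrays of these genes did not overlap. The other members of that run, ZNF747 (-0.74, -0.05 normalized) and ZNF768 (-0.91, -0.16 normalized), fell in deposited values only. ZNF768 is a target of RAS signalling.

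**Figure D4:**
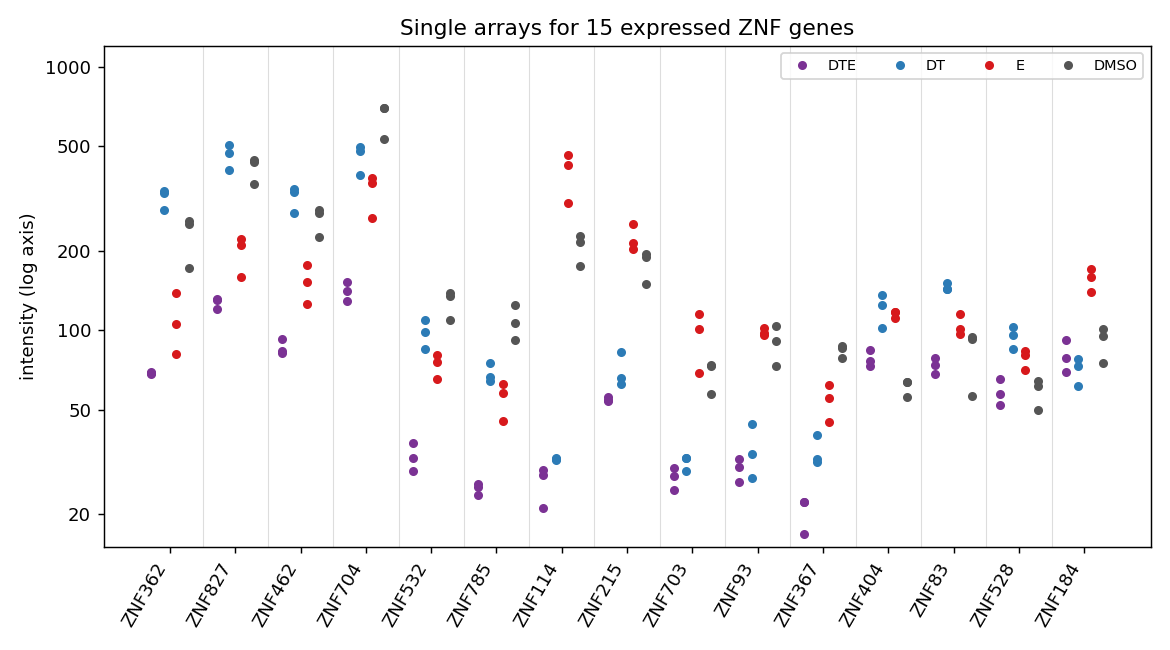
Each point is 1 array, with the intensity on a log axis for 15 expressed ZNF genes, in the order DTE, DT, E and DMSO within a gene. ZNF362, ZNF827 and ZNF462 sit lower in DTE and E than in DT and DMSO, whereas ZNF114, ZNF215 and ZNF93 sit lower in DTE and DT than in E and DMSO.

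No member rose in DTE against DT in deposited values, and the largest positive values there were small. ZNF184 read 69.2, 78.8 and 91.6 on the DTE arrays and 73.5, 61.7 and 78 on the DT arrays, which overlap, and its log2 difference of 0.16 ± 0.15 (SE) had an adjusted p of 0.37. After quantile normalization it rose by 0.88 (adjusted p = 3e-06). ZNF208, ZNF470, ZNF311, ZNF786 and ZNF420 lay between -0.14 and 0.11 in deposited values and rose by 0.83, 0.64, 0.64, 0.60 and 0.60 after normalization. No member passed the test upward, so these least lowered members are named instead, chosen after their values were seen; their DTE and DT arrays overlapped in deposited values. ZNF143, an activator at promoters of small nuclear RNA genes and many coding genes, was among them, with 50.8, 54.3 and 58.8 on the DTE arrays and 68.3, 49.8 and 61.7 on the DT arrays (-0.12, and 0.56 normalized with an adjusted p of 0.00011).

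In DTE against E the largest difference was that of ZNF114. It read 28.2, 21.1 and 29.6 on the DTE arrays, 32.5, 32.3 and 32.9 on the DT arrays, 304, 424 and 464 on the E arrays, and 228, 217 and 175 on the DMSO arrays. Every array with dabrafenib and trametinib lay under every array without them. In DTE against E it fell 15-fold (log2 difference -3.91 ± 0.16 SE, adjusted p = 4.4e-14), and by 2.96 on the log2 scale after quantile normalization. In DTE against DT its difference of -0.32 did not pass (adjusted p = 0.097).

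ZNF215, an imprinted gene on chromosome 11 whose promoter with the ETS letters is given above, read 55.8, 53.9 and 54.5 on the DTE arrays, 62.8, 66.2 and 82.6 on the DT arrays, 203, 214 and 253 on the E arrays, and 194, 189 and 150 on the DMSO arrays. It fell by 2.02 ± 0.15 in DTE against E (SE, adjusted p = 1.4e-10), and by 0.87 after normalization. ZNF703, a transcriptional repressor amplified in luminal breast cancer, averaged 27.6 ± 2.71 in DTE, 31.5 ± 2.05 in DT, 94.9 ± 23.9 in E and 68.3 ± 9.52 in DMSO (-1.75, or -0.75 normalized, in DTE against E). ZNF331, an imprinted gene on chromosome 19, averaged 51.1 ± 4.63 in DTE, 61.6 ± 7.99 in DT, 172 ± 30.9 in E and 98.8 ± 13.7 in DMSO (-1.74, or -0.59). ZNF93, a KRAB protein that binds LINE-1 elements, averaged 29.8 ± 2.97 in DTE, 35.2 ± 8.31 in DT, 98.5 ± 3.06 in E and 89.4 ± 15.3 in DMSO (-1.73, or -0.69). The DTE arrays lay below every E array for all 4 on both scales. ZNF43, ZNF718 and ZNF530 complete the 8 largest falls, with -1.69, -1.64 and -1.62 in deposited values and -0.66, -0.55 and -0.74 after normalization.

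The members least lowered against E had positive differences after normalization. ZNF25 read 88, 104 and 95.5 on the DTE arrays and 103, 112 and 151 on the E arrays, which overlap (log2 difference -0.33 ± 0.16 SE, adjusted p = 0.058), and rose by 0.88 after normalization (adjusted p = 8.5e-05). ZNF528 read 51.9, 65.1 and 57.5 on the DTE arrays and 83.2, 70.6 and 80.9 on the E arrays. ZNF83 read 68.3, 78.6 and 73.9 on the DTE arrays and 96.8, 101 and 115 on the E arrays. The DTE arrays of ZNF528 and ZNF83 lay under all E arrays, and both genes fell in deposited values (-0.43 and -0.50) and rose after normalization (0.75 and 0.69). ZNF449, ZNF404 and ZNF841 also fell in deposited values and rose after normalization, with -0.52, -0.56 and -0.49 in deposited values and 0.68, 0.64 and 0.64 after normalization.

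Members were also grouped by what their proteins do. Counts of these groups and of the runs below stand beside the shares of all genes with at least 50 in DMSO, of which 83.6% fell against DT and 99% against E in deposited values. After normalization 27.1% of those genes fell and 19.9% rose against DT, and 17.8% fell and 14.4% rose against E. Among 11 members with roles in RNA, ribosomes or mitosis, all 11 fell in DTE against DT (median -0.76) and in DTE against E (median -1.26) in deposited values, which is near those shares, and after normalization 1 and 2 of them fell. ZNF830, a protein that copurifies with spliceosomes, read 58.2, 66.4 and 61.8 on the DTE arrays, 170, 169 and 156 on the DT arrays, 162, 143 and 179 on the E arrays, and 254, 229 and 213 on the DMSO arrays, and was the 1 that fell against DT after normalization (-0.69, adjusted p = 0.00044). ZNF622 (-0.46, adjusted p = 0.016) and ZNF593 (-0.48, adjusted p = 0.046), whose yeast counterparts Rei1 and Bud20 act in maturation of the large ribosomal subunit, were the 2 that fell against E. ZNF593 averaged 26.7 ± 5.38 in DTE, 49.7 ± 6.44 in DT, 73.3 ± 9.46 in E and 76.3 ± 10.9 in DMSO. ZNF207 averaged 288 ± 15.7 in DTE, 513 ± 29.4 in DT, 690 ± 57.7 in E and 720 ± 56.4 in DMSO, and ZNF330, a nucleolar protein, 31.6 ± 3.54 in DTE, 45.7 ± 3.3 in DT, 83 ± 9.95 in E and 78.6 ± 13.5 in DMSO. Normalized differences of ZNF207 (-0.15 against DT, -0.13 against E) and ZNF330 (0.02 and -0.33) did not pass.

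A list of 20 members taken as activators or subunits of chromatin complexes also held ZNF703, described above as a repressor. Of the 20, 16 fell against DT (median -0.87) and all 20 against E (median -0.93) in deposited values. These are 80% and 100%, near the shares of 83.6% and 99%. After normalization 9 fell and 4 rose against DT (45% and 20%, against 27.1% and 19.9%), and 2 fell and 5 rose against E (10% and 25%, against 17.8% and 14.4%). ZNF827, ZNF462 and ZNF532 were among those lower against DT, as was ZNF24, a SCAN domain protein, at 128 ± 13.7 in DTE and 325 ± 35.8 in DT (-1.35, or -0.62 normalized with an adjusted p of 4.5e-05). ZNF143 was among those higher against DT after normalization.

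Of 18 KRAB genes listed for a described target or partner, 7 were members. In deposited values 3 of the 7 fell against DT (83.6% of genes with at least 50) and all 7 against E (99%). After normalization 1 rose and 0 fell against DT (4 higher and 0 lower at an unadjusted p under 0.05 by limma). At that unadjusted threshold 1462 of the 6175 other genes with at least 50 in DMSO were higher against DT and 1993 lower. Against E 1 rose and 3 fell after normalization. The 1 that rose against DT was ZNF445, which protects DNA methylation at imprinted loci, with 53.5, 55.2 and 73.1 on the DTE arrays and 71.6, 68 and 72.7 on the DT arrays (-0.24, and 0.46 normalized with an adjusted p of 0.0037). ZNF224, a repressor of the aldolase A gene, was the 1 that rose against E after normalization, at 57 ± 12.5 in DTE, 72.9 ± 7.91 in DT, 86.6 ± 15.4 in E and 61.6 ± 9.66 in DMSO (0.57, adjusted p = 0.0062, against -0.61 in deposited values). ZNF114, ZNF93 and ZNF141 fell against E on both scales, with ZNF141 at 20.5 ± 1.29 in DTE and 54.7 ± 6.89 in E (-1.41, or -0.54 normalized).

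Genes next to each other on a chromosome were compared as runs of at least 5 members with at most 3 other protein-coding genes between neighbours. There were 8 such runs, 6 of them on chromosome 19. Probes of close relatives can bind each other's transcripts, so runs are not independent counts, and this was not tested. In the run on chromosome 16 from ZNF768 to ZNF785 all 5 fell against DT (median -1.43), and 3 of 5 did after normalization (median -0.86), beside 83.6% and 27.1% of genes with at least 50. In the chromosome 19 run from ZNF579 to ZNF580 all 5 fell against DT (median -0.95), and 3 of 5 after normalization (median -0.31).

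The run of 10 genes from ZNF614 to ZNF83 on chromosome 19, which holds ZNF841, ZNF610, ZNF528 and ZNF83, lay at the other end. All 10 fell against E in deposited values, as did 99% of genes with at least 50, by between 0.43 and 0.93 on the log2 scale, while the median over the 209 was -1.02. After normalization 6 of the 10 rose against E and 0 fell, with a median of 0.49. Among genes with at least 50, 14.4% were higher and 17.8% lower. At an unadjusted p under 0.05 by limma all 10 were higher and 0 lower. At that unadjusted threshold 1355 of the 6175 other genes with at least 50 in DMSO were higher and 1551 lower. Of the 209 members 67 were higher and 26 lower. The 5 genes with the CRE letters, ZNF266 to ZNF562, all fell against DT (median -0.60) and against E (median -1.01) in deposited values, and after normalization 1 of them, ZNF561 (-0.48), fell against DT. ZNF121, the brightest of the 5, read 251, 275 and 318 on the DTE arrays, 429, 321 and 427 on the DT arrays, 496, 613 and 772 on the E arrays, and 950, 829 and 668 on the DMSO arrays. In the run of 21 from ZNF264 to ZNF8 the normalized medians were -0.05 against DT and 0.07 against E.

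**Figure D5:**
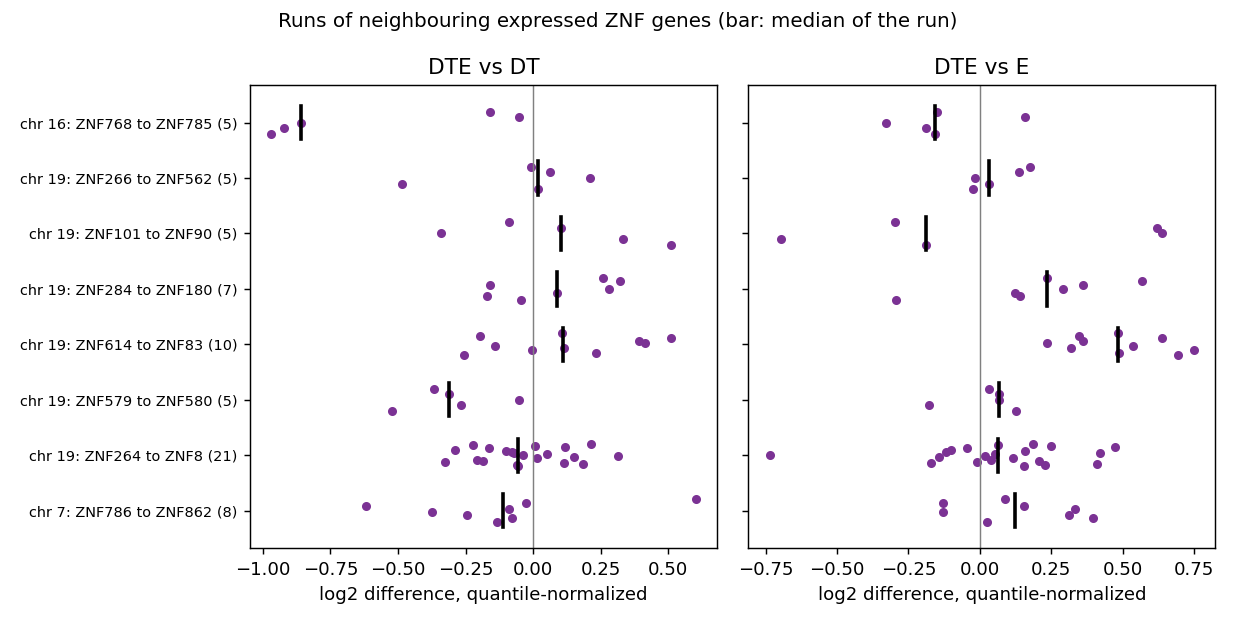
Each point is 1 expressed ZNF gene, with its log2 difference after quantile normalization in DTE vs DT (left) and DTE vs E (right), for 8 runs of neighbouring members, and bars mark the median of a run. The chromosome 16 run has the lowest median in DTE vs DT (-0.86), and the run from ZNF614 to ZNF83 the highest in DTE vs E (0.49).

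Medians by chromosome and by the ETS or CRE letters lay close together. The 95 members on chromosome 19 had a median of -0.64 in deposited values (-0.03 normalized) in DTE against DT, and the 114 on other chromosomes -0.74 (-0.10 normalized). In DTE against E the medians were -1.01 (0.12 normalized) and -1.02 (0.09 normalized). Calls after normalization differed more in DTE against DT, where 16.8% of the chromosome 19 members and 29.8% of the others fell. There 14.7% and 14.9% rose. Of all genes with at least 50 in DMSO, 27.1% fell and 19.9% rose. In deposited values the 37 members with the ETS letters had a median of -0.65 in DTE against DT and -1.02 in DTE against E. The 143 members with a window and no such letters had -0.71 and -1.04. The 13 with the CRE letters had -0.72 and -1.12, also in deposited values. The 220 ZNF genes under 50 in DMSO, nearer to background, had medians of -0.39 in DTE against DT and -0.59 in DTE against E in deposited values, and of -0.08 and 0.09 after normalization.

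Compared with DMSO, where the members were chosen, the counts are descriptions. In DTE 187 were called lower and 1 higher, against 60.8% lower and 4.26% higher over all genes and 92% lower and 1.33% higher over genes with at least 50. In DT 58 were called lower and 7 higher, against 23.1% and 4.72% over all genes and 43.8% lower and 4.03% higher over genes with at least 50. In E 37 were called higher and 19 lower, against 20.8% and 4.81% over all genes and 17.7% and 9.05% over genes with at least 50. After normalization the calls were 61 lower and 55 higher in DTE (22.4% and 20.5% of all genes, 36% and 24.6% of genes with at least 50), 24 lower and 55 higher in DT (14.6% and 15.1%, 25.9% and 22.1%), and 52 lower and 32 higher in E (16.3% and 15.1%, 27.8% and 18.4%). Nothing is read from these counts. Without the array DMSO replicate 3, the lower calls in DT went to 90 and the higher calls in E to 22.

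The lowest members in DT relative to DMSO were ZNF114 (-2.66), ZNF93 (-1.36), ZNF215 (-1.34), ZNF367 (-1.28), ZNF703 (-1.11) and ZNF121 (-1.05). The highest were ZNF404 (0.98), ZNF83 (0.89), ZNF528 (0.69), ZNF449 (0.52), ZNF362 (0.50) and ZNF610 (0.47). ZNF83 read 151, 144 and 144 on the DT arrays and 94.1, 92.5 and 56.2 on the DMSO arrays, and no array overlapped between the groups. Relative to DMSO, the lowest members in E were ZNF362 (-1.08), ZNF827 (-1.06), ZNF785 (-0.97), ZNF704 (-0.95), ZNF462 (-0.80) and ZNF532 (-0.78). The highest in E were ZNF311 (0.97), ZNF114 (0.93), ZNF404 (0.92), ZNF184 (0.80), ZNF331 (0.79) and ZNF217 (0.78), the last a gene amplified in breast cancer whose protein binds the corepressor CtBP. After normalization each of these values kept its sign.

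In DTE relative to DMSO the lowest members were ZNF114 (-2.98), ZNF704 (-2.19), ZNF785 (-2.10), ZNF367 (-2.04), ZNF532 (-1.94) and ZNF830 (-1.90). ZNF367, whose promoter holds the E2F letters, read 16.8, 22.3 and 22.4 on the DTE arrays, 39.9, 31.5 and 32.6 on the DT arrays, 44.7, 55.5 and 61.9 on the E arrays, and 87.4, 85.4 and 78.3 on the DMSO arrays. Its arrays did not overlap between any 2 groups. ZNF367 fell in DTE against DT (-0.76, or -0.39 normalized, adjusted p = 0.0002 and 0.012) and against E (-1.40, or -0.53 normalized, adjusted p = 3.7e-08 and 0.0033). ZNF404 was the only member whose mean in deposited values was higher in DTE than in DMSO, with 76.5, 84 and 73.5 on the DTE arrays, 136, 102 and 125 on the DT arrays, 117, 111 and 117 on the E arrays, and 63.5, 63.9 and 55.6 on the DMSO arrays. ZNF528 (-0.01), ZNF311 (-0.03), ZNF554 (-0.08), ZNF83 (-0.10) and ZNF224 (-0.12) followed. After normalization these genes lay above DMSO, at 0.94, 0.89, 0.82, 0.94 and 0.83 in that order, and ZNF404 at 1.34. The lowest members named above stayed below DMSO, between -2.09 and -0.82. Of all 209 members, 102 had a positive difference in DTE relative to DMSO after normalization and 107 a negative one.

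The genes through which KRAB proteins repress were not chosen by the DMSO arrays, and 29 of 37 listed were measured. In deposited values 26 of the 29 fell in DTE against DT and all 29 in DTE against E, with medians of -0.68 and -1.15. These are 89.7% and 100%, near the 83.6% and 99% of genes with at least 50 in DMSO (54% and 78.5% of all genes). After normalization 10 fell and 6 rose against DT (34.5% and 20.7%, against 27.1% and 19.9% of genes with at least 50). Against E 5 fell and 4 rose (17.2% and 13.8%, against 17.8% and 14.4%). Against DMSO 14 fell and 0 rose in DT and 28 fell and 0 rose in DTE in deposited values, while 4 rose and 1 fell in E. The 48.3% lower in DT, 96.6% lower in DTE and 13.8% higher in E are near the 43.8%, 92% and 17.7% of genes with at least 50. After normalization 9 fell and 4 rose in DT (31% and 13.8%, against 25.9% and 22.1% of genes with at least 50). In DTE 12 fell and 4 rose (41.4% and 13.8%, against 36% and 24.6%), and in E 11 fell and 3 rose (37.9% and 10.3%, against 27.8% and 18.4%). The 4 that rose in DT after normalization were DNMT3A (0.59), ATF7IP (0.53), CHD3 (0.36) and RESF1 (0.31).

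TRIM28, the protein that KRAB domains bind, read 585, 627 and 607 on the DTE arrays, 794, 690 and 802 on the DT arrays, 1108, 1325 and 1291 on the E arrays, and 1260, 1547 and 1199 on the DMSO arrays. In deposited values it was lower in both groups with dabrafenib and trametinib, and in DT against DMSO it fell by 0.80 ± 0.14 (SE, adjusted p = 8.8e-05; -0.53 normalized). TRIM28 fell in DTE against E by 1.03 in deposited values (adjusted p = 5.3e-07) but differed by -0.0020 after normalization (adjusted p = 0.99). In DTE against DT its difference was -0.33 in deposited values (adjusted p = 0.046, and 0.067 with a replicate block) and 0.34 after normalization (adjusted p = 0.0053). DNMT1, the maintenance DNA methyltransferase, read 83.9, 95.8 and 106 on the DTE arrays, 161, 135 and 160 on the DT arrays, 289, 361 and 385 on the E arrays, and 378, 388 and 308 on the DMSO arrays. It fell in DT against DMSO by 1.23 (adjusted p = 8.6e-07; -0.90 normalized) and in DTE against E by 1.85 (adjusted p = 5.9e-10; -0.69 normalized).

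UHRF1, which guides DNMT1 to replicated DNA, averaged 75.6 ± 1.95 in DTE, 98 ± 11.7 in DT, 240 ± 36.2 in E and 289 ± 38.9 in DMSO, and fell in DT against DMSO by 1.56 (adjusted p = 2.5e-08; -1.19 normalized). The histone H3 lysine methyltransferases SUV39H1 and SUV39H2 fell in DT against DMSO by 1.36 and 1.10 (-1.07 and -0.73 normalized), and in DTE against E by 1.66 and 1.94 (-0.88 and -0.93 normalized). SUV39H2 averaged 28 ± 5.46 in DTE, 56.4 ± 6.56 in DT, 107 ± 17 in E and 122 ± 23 in DMSO. HDAC1, a target of entinostat, averaged 87.3 ± 7.78 in DTE, 121 ± 10.1 in DT, 216 ± 33.5 in E and 152 ± 18.1 in DMSO, and rose in E against DMSO by 0.51 (adjusted p = 0.012; 0.41 normalized). DNMT3B, a de novo DNA methyltransferase, averaged 14.1 ± 0.66 in DTE, 16.4 ± 1.23 in DT, 32.5 ± 3.98 in E and 18.6 ± 1.08 in DMSO, near background in all groups but E, and rose in E against DMSO by 0.80 (adjusted p = 7.6e-05; 0.44 normalized). RBBP4 and RBBP7, histone-binding subunits of NuRD and other complexes, fell in DTE against E by 1.32 each in deposited values and differed by -0.17 and -0.14 after normalization, which did not pass.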

How the data were processed

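Affymetrix arrays of 12 SKMEL2 samples were used, 3 for each of DTE, DT, E and DMSO. The authors deposited 1 linear intensity for each probe set. RMA and the Transcriptome Analysis Console are the tools listed, without order or version, per the submitters' processing notes. An ERCC spike-in is named per the labels' protocols, and no label says how arrays were rescaled. Values were expected on a log2 scale and were linear, so log2 was taken, with no pseudocount and no filter. Of 29398 probe sets, 14750 carried a gene name, giving 14582 genes. The brightest probe set stood for a gene with several, which concerned 3 members.

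All 12 arrays were fitted with limma 3.58.1 in R 4.3.3 (lmFit and eBayes, 1 mean per group, Benjamini-Hochberg adjustment over all 14582 genes, threshold 0.05). The fit was tested on simulated data for DTE against DT over 14582 genes, where it called 65 of 66 genes changed by 1 on the log2 scale and 29 of 68 changed by 0.5. In the simulation 14382 genes were unchanged and the arrays had no difference in level. The deposited arrays do differ in level, so these rates cannot be carried over to them. The number of arrays limits the precision. Quantile normalization, centring on the median or on the brighter genes, another variance model, a filter on dim genes, other thresholds, the mean of probe sets, a replicate block and leaving out each array were tried as alternatives.

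The members and lists were chosen with earlier results of these data known. Named genes were the 8 largest rises and falls that passed the test with arrays that do not overlap in DTE against DT and in DTE against E, the 6 highest and 6 lowest relative to DMSO, the 3 on each side of the threshold, the 3 brightest, and members of the role lists. Cofactors described singly were TRIM28 and the 8 with the smallest adjusted p in DTE against DT or DTE against E. They were thus picked for strong differences. The least lowered members were added after their values were seen. Neighbour runs and promoter motifs were also added after the data were seen. Protein sequences and domain classes were not analysed here. The listed genes SETDB1, TASOR, MTA2, MTA3, MBD3 and SMARCAD1, among others, were not analysed here.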

Additional observations from a re-analysis of the deposited data

Results flagged for a closer look

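In 8 members the difference between cells with and without entinostat ran one way in every array when dabrafenib and trametinib were present and the opposite way when they were absent. The difference between the 2 directions was not tested, because the DMSO arrays chose the members. The value given for each gene is the log2 difference of DTE against DT minus that of E against DMSO. For ZNF114 it was -1.25 (-0.32 with the other drugs and 0.93 without them), and -0.72 after quantile normalization. For ZNF404 it was -1.54 (-0.63 and 0.92), and -0.60 normalized. For ZNF83 it was -1.39 (-0.99 and 0.40), and -0.50 normalized. These 3 were the lowest of the 8 after normalization. For ZNF217 it was -1.28 (-0.50 and 0.78), and -0.40 normalized. For ZNF528 it was -1.12 (-0.70 and 0.42), and -0.19 normalized. For ZNF331 it was -1.06 (-0.27 and 0.79), and -0.26 normalized. For ZNF264 it was -1.05 (-0.49 and 0.56), and -0.20 normalized. For ZNF215 it was -0.69 (-0.36 and 0.33), and 0.10 normalized. The median over all 209 members was -0.81 in deposited values and -0.02 normalized. Over the 6175 other genes with at least 50 in DMSO it was -0.78 and 0.007. In deposited values the difference was below 0 for all 209 members and for 6125 of those 6175 genes. How many other genes had opposite directions was not counted, so the 8 are not read as particular to ZNF genes. After normalization the directions were opposite only for ZNF83 (-0.26 and 0.24) and, with a value next to 0, ZNF528.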

How the results depend on the processing

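The scale decided most counts. After quantile normalization the members called were 31 higher and 50 lower in DTE against DT (median -0.057), 40 and 21 in DTE against E (0.10), 55 and 61 in DTE against DMSO (-0.018), 55 and 24 in DT against DMSO (0.051), and 52 lower in E against DMSO; the median of DTE minus DT minus E plus DMSO was -0.022. Centred on the array median they were 10 and 95 (-0.25), 13 and 49 (-0.092), 22 and 117 (-0.35), 30 higher (-0.068), and 22 and 75 (-0.20) in the same order, with -0.080 for the last median. Centred on the brighter genes they were 34 and 45 (-0.0035), 62 and 18 (0.15), 74 and 51 (0.047), 62 and 22 (0.083), and 45 lower, with 0.0135. A threshold of 25 gave 320 members and one of 100 gave 86.

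Some named genes that passed the test in deposited values or on the other scale changed direction with it, and the cause was not tested. In DTE against DT after quantile normalization these were ZNF311 0.64, ZNF420 0.60, ZNF470 0.64, ZNF786 0.60, DNMT1 0.072, UHRF1 0.35, RBBP7 0.16, HDAC1 0.26, TRIM28 0.34, ZNF143 0.56, ZNF330 0.0235, ZNF445 0.46 and ZNF622 0.042. Centred on the median they were ZNF311 0.40, ZNF420 0.31, ZNF470 0.37, ZNF786 0.39, UHRF1 0.078, TRIM28 0.12 and ZNF143 0.32. Centred on the brighter genes they were ZNF311 0.65, ZNF420 0.56, ZNF470 0.62, ZNF786 0.64, DNMT1 0.014, UHRF1 0.33, SUV39H1 0.050, RBBP7 0.12, HDAC1 0.22, DNMT3B 0.48, TRIM28 0.37, ZNF114 0.37, ZNF141 0.11, ZNF143 0.57, ZNF224 0.32, ZNF330 0.16, ZNF445 0.46 and ZNF93 0.48. Genes that passed on neither scale changed sign too, after quantile normalization ZNF224 (0.32), ZNF93 (0.33), ZNF114 (0.16) and DNMT3B (0.039), and centred on the median ZNF224 (0.072), ZNF93 (0.23), ZNF114 (0.12), DNMT3B (0.23) and ZNF445 (0.21).

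In DTE against E after quantile normalization they were ZNF25 0.88, ZNF404 0.64, ZNF449 0.68, ZNF528 0.75, ZNF83 0.69, ZNF841 0.64, ZNF143 0.23, ZNF224 0.57, ZNF24 0.071, ZNF445 0.28, ZNF462 0.40 and ZNF827 0.55, and also ZNF362 0.57, whose values under the 2 centrings are not given. Centred on the median they were ZNF25 0.60, ZNF404 0.37, ZNF449 0.41, ZNF528 0.50, ZNF83 0.43, ZNF841 0.44, ZNF224 0.32, ZNF445 0.041, ZNF462 0.12 and ZNF827 0.31. Centred on the brighter genes they were ZNF25 0.84, ZNF404 0.61, ZNF449 0.66, ZNF528 0.74, ZNF83 0.67, ZNF841 0.68, TRIM28 0.14, ZNF143 0.24, ZNF224 0.56, ZNF24 0.0895, ZNF445 0.29, ZNF462 0.37, ZNF532 0.015 and ZNF827 0.55.

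Leaving out each array in turn kept the median between -0.78 and -0.65 in DTE against DT, -1.14 and -0.92 in DTE against E, -1.10 and -0.93 in DTE against DMSO, and -0.38 and -0.19 in DT against DMSO. In E against DMSO it ran from -0.06 (without DMSO replicate 3) to 0.18, and the last median from -0.92 to -0.69. Lower calls ran from 165 to 186, 205 to 209, 178 to 197, 34 to 90 and 9 to 25 in the order used above, and higher calls from 0 to 1 in DTE against DMSO, 3 to 9 in DT against DMSO and 22 to 49 in E against DMSO. The 90 came without DMSO replicate 3, and the 34 without DMSO replicate 1, DMSO replicate 2 or DT replicate 2. The 22 came without DMSO replicate 3, 23 without E replicate 3, the 9 without DMSO replicate 1 or 2, and 10 lower without E replicate 1. After quantile normalization the calls were 23 to 31 higher and 39 to 50 lower in DTE against DT, and 25 (without E replicate 1) to 41 higher and 16 to 20 lower in DTE against E.

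Samples with the same replicate number did not deviate together (correlations of -0.221 to 0.126, median -0.0217), and 2 of 18 such pairs lay over 0.1. Pairs with different numbers had correlations of -0.144 to 0.266 (median -0.00368), and 8 of 36 lay over 0.1. The highest was that of DMSO replicate 3 with E replicate 1. A block on the replicate number cannot remove deviations that arrays with different numbers share. With a replicate block 179 members were lower in DTE against DT and 207 in DTE against E, and UHRF1 (adjusted p = 0.054) and TRIM28 (0.067) were no longer called in DTE against DT. In DT against DMSO the block gave 5 higher and 49 lower, and in E against DMSO 34 and 15.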
